A study of Mus musculus with 4 samples.

Results

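The myogenic factors and the muscle acetylcholine receptor were followed as a set of 10 genes in the embryonic mouse heart: the 4 transcription factors of the MyoD family (Myod1, Myog, Myf5 and Myf6), the satellite cell factor Pax7, the receptor subunits Chrna1, Chrnb1, Chrnd and Chrng, and the receptor kinase gene Musk. Members were the probe sets whose platform annotation names 1 of these genes alone, and 14 probe sets did so, out of 45037 probe sets that are not controls. The 10 genes stand among 18193 named in this way. The study hybridised RNA of heart ventricles to Affymetrix MOE430v2 arrays, 2 from HDAC2-deficient embryos (KO) and 2 from wild-type littermates (WT), all at embryonic day 17.5 on a mixed C57BL/6 X SV129 background. Each KO array took a pool of 3 animals and each WT array a pool of 2, with 6 µg of total RNA per array. The sources used here do not give the allele behind the deficiency. Nothing says whether animals were shared between pools, so p-values measure the spread between these pools alone, which may be partly technical.

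The MyoD family are basic helix-loop-helix proteins that pair with ubiquitous partners and bind the E-box, a short DNA motif, to switch on genes of skeletal muscle. They mark the skeletal muscle lineage and are not part of the known gene programme of heart muscle. The acetylcholine receptor of fetal muscle is a pentamer of alpha, beta, gamma and delta subunits that opens when a motor nerve releases acetylcholine, and MuSK, the kinase encoded by Musk, gathers these receptors under the nerve ending.

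The labels were checked on Hdac2 first, because the source entry of the 2 KO samples names wild type too. Hdac2 probe set 1445684_s_at had signals of 31.4 and 21.0 on the KO arrays, without a Present call, against 1188.5 and 1421.1 on the WT arrays. The arrays called 43.2% and 43.8% of probe sets Present in KO, against 43.2% and 42.4% in WT. The ventricular cardiomyocyte markers were detected throughout, with all 12 genes Present on both arrays of each group and summed signals of 113146 and 118917 in KO against 118297 and 115782 in WT. The ratio of the 3' to the 5' actin control, a sign of RNA quality, stood at 2.75 and 2.42 in KO, against 1.85 and 2.32 in WT.

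Chrna1 and Chrnb1, the alpha and beta subunit genes, were the 2 members with any Present call. Both were called Present on the 2 WT arrays and Absent on the 2 KO arrays. Neither difference passed the test. The MAS5 software calls a probe set Present, Marginal or Absent from a detection p-value that compares its matching probes with mismatched ones, here over 11 probe pairs. Of all probe sets, 0.546% were Present on both WT arrays and Absent on both KO arrays, and 0.677% had the opposite pattern.

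Chrna1, whose product carries most of the acetylcholine binding site, had signals of 34.6 and 41.4 on the KO arrays, against 74.6 and 55.4 on the WT arrays (probe set 1418852_at). Both KO values lay below both WT values, and the WT arrays differed from each other more than the KO arrays did. The log2 difference, KO minus WT, was -0.76 ± 0.30 (moderated SE, n = 2 arrays per group), with an adjusted p = 0.240 in limma. As a point estimate, the signal was 1.70-fold lower in KO, where the gene was not detected. Its detection p-values were 0.112 and 0.0676 in KO, against 0.0142 and 0.0461 in WT. The second KO value and the second WT value therefore stood on either side of the narrow range between the calls: on these arrays the highest p called Present was 0.0483 and the lowest called Absent was 0.0652. The deposited signal log ratio of Chrna1, measured against a baseline array that the sources used here do not name, was 3.3 and 2.0 in KO, against 3.2 and 2.9 in WT, so the groups overlapped on that scale.

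Chrnb1, the structural beta subunit, had signals of 62.8 and 61.0 on the KO arrays, against 83.8 and 77.4 on the WT arrays (1420682_at). The groups did not overlap, and each group's arrays lay close together. The log2 difference was -0.38 ± 0.24, a point estimate of 1.30-fold lower in KO, and did not pass (adjusted p = 0.466 in limma). Detection p-values were 0.130 on both KO arrays, against 0.0107 and 0.0376 on the WT arrays. The signal log ratios, 1.0 and 0.6 in KO against 1.7 and 1.4 in WT, were separated in the same direction. At a stricter detection p-value of 0.01, neither gene was detected on both WT arrays.

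Both tested member probe sets entered the test through their WT calls alone, so the direction of their difference was largely set by the filter. Of these 2, 0 passed an adjusted p of 0.05 in limma and 1, Chrna1, had an unadjusted p under 0.05 (0.0221). Over the 19065 probe sets tested, 0.960% passed as lower in KO, 0.383% passed as higher and 15.5% had an unadjusted p under 0.05. The other 12 member probe sets, from the other 8 genes, were Absent on all 4 arrays, as were 47.3% of all probe sets. They were not tested, and no fold change is given for them. Across the 14 probe sets, 0 of 28 calls were Present in KO and 4 of 28 in WT.

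**Figure D1:**
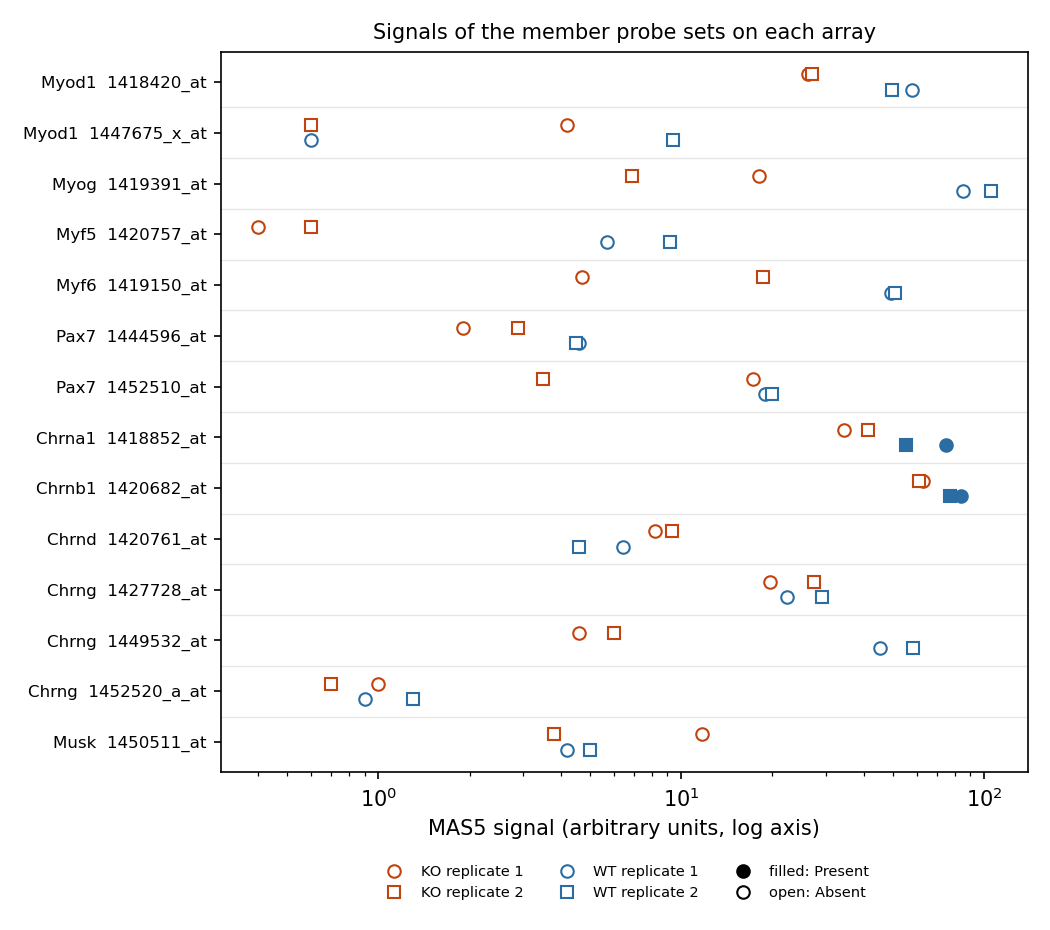
MAS5 signal (arbitrary units, log axis) of each of the 14 member probe sets on each array, KO drawn above WT in each row; filled symbols were called Present and open ones Absent. Both KO arrays lie below both WT arrays in 9 rows and above them in 1, Chrnd, beside 23.4% and 17.5% of all probe sets. The filled symbols are the 4 WT values of Chrna1 and Chrnb1, and levels are not comparable between rows.

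**Figure D2:**
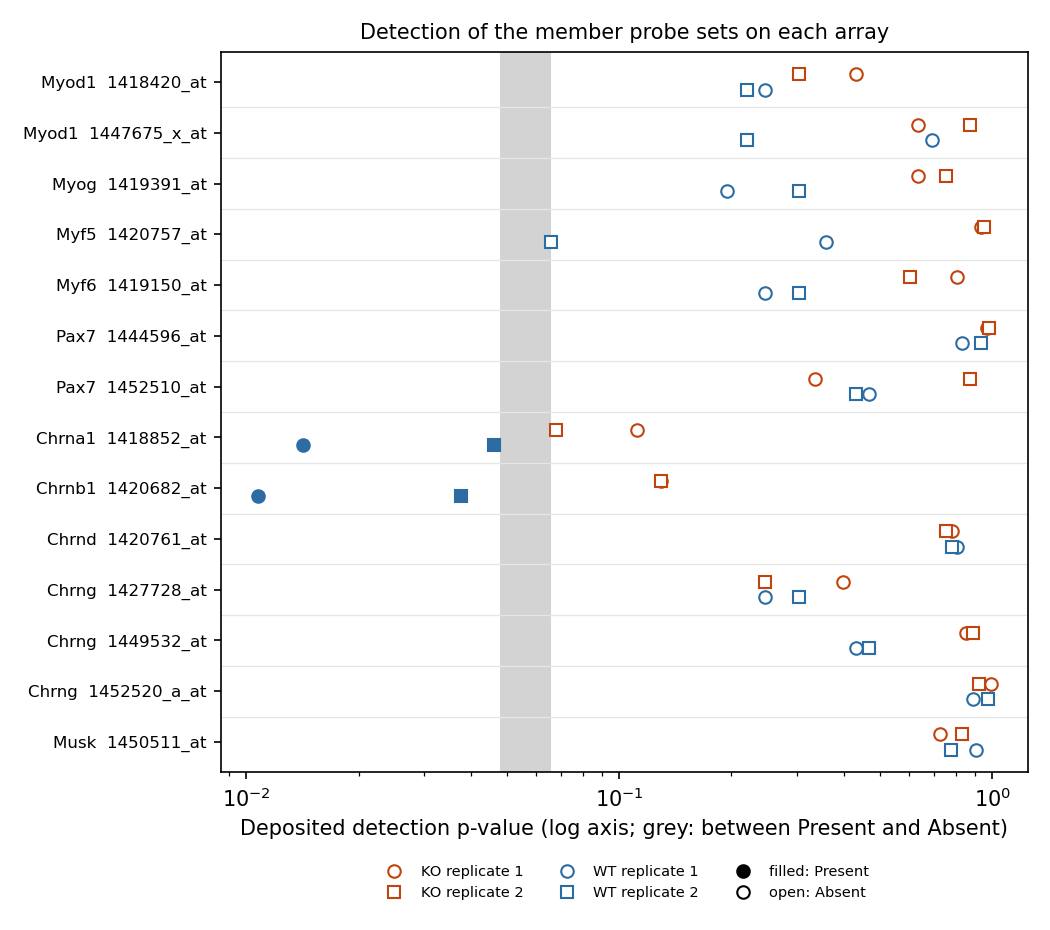
Deposited detection p-value (log axis) of the same 14 probe sets on each array, with the range between Present and Absent calls in grey. Chrna1 and Chrnb1 lie left of the grey range on the WT arrays and right of it on the KO arrays, where the 2 Chrnb1 values coincide at 0.130, and the values of the other 8 genes lie to its right, with 1 WT value of Myf5 at its edge.

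Chrng encodes the gamma subunit, which fetal receptors carry and adult ones replace with the epsilon subunit, and its 3 probe sets disagreed. At 1449532_at the signals were 4.6 and 6.0 in KO, against 45.4 and 58.3 in WT. The groups were far apart there, but every value was called Absent, with detection p-values of 0.850 and 0.888 in KO, against 0.432 and 0.466 in WT. The signal log ratio there, -5.1 and -4.4 in KO against -1.4 and -1.3 in WT, was separated as well. At 1427728_at the signals were 19.6 and 27.5 in KO, against 22.4 and 29.1 in WT, and at 1452520_a_at they were 1.0 and 0.7 in KO, against 0.9 and 1.3 in WT. The groups overlapped in signal at both of these probe sets, while the signal log ratio separated them at 1452520_a_at, with -3.6 and -3.4 in KO against -2.8 and -3.0 in WT.

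Chrnd, the delta subunit gene, was the 1 member with both KO arrays above both WT arrays in signal. Its signals were 8.2 and 9.3 in KO, against 6.4 and 4.6 in WT, with detection p-values between 0.754 and 0.805 on the 4 arrays. The groups overlapped in its signal log ratio, with -2.3 and -2.9 in KO against -3.0 and -2.2 in WT. Chrnd and Chrng follow each other on chromosome 1 in the order of protein-coding genes. Musk had signals of 11.7 and 3.8 in KO, against 4.2 and 5.0 in WT, and the KO arrays lay on either side of the WT arrays. Neither gene was detected on any array.

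All 4 factors of the MyoD family were Absent on all 4 arrays. At 4 of their 5 probe sets, both KO signals lay below both WT signals, beside 23.4% of all probe sets Absent on all 4 arrays. Myog, which drives the differentiation of myoblasts into fibres, had signals of 18.0 and 6.9 in KO, against 85.2 and 105.3 in WT (1419391_at). Detection p-values of Myog were 0.634 and 0.754 in KO, against 0.195 and 0.304 in WT, so the WT values were not called above background. The signal log ratio of Myog was 1.5 and -0.9 in KO, against 3.4 and 3.1 in WT.

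Myf5, the earliest factor of the family in the embryo, had signals of 0.4 and 0.6 in KO, against 5.7 and 9.2 in WT. One WT array came within reach of a call: its detection p-value was 0.0654, against 0.358 on the other WT array and 0.932 and 0.952 in KO. Myf6, also known as MRF4 and most abundant in formed fibres, had signals of 4.7 and 18.6 in KO, against 49.1 and 50.7 in WT. Its detection p-values were 0.805 and 0.601 in KO, against 0.246 and 0.304 in WT. The WT arrays of Myf6 agreed closely with each other and the KO arrays did not. Myf5 and Myf6 are neighbours on chromosome 10 and are known to share regulatory elements.

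Myod1, the founding member of the family, had signals of 26.3 and 27.0 in KO, against 57.6 and 49.5 in WT, at 1418420_at. Its second probe set, 1447675_x_at, overlapped between the groups, with 4.2 and 0.6 in KO against 0.6 and 9.4 in WT. The suffix of that probe set marks probes that can match other transcripts too. Pax7, the factor of satellite cells and of their embryonic precursors, had signals of 17.2 and 3.5 in KO, against 18.9 and 19.9 in WT, at 1452510_at, and 1.9 and 2.9 in KO, against 4.6 and 4.5 in WT, at 1444596_at. The groups did not overlap at either Pax7 probe set, although the first KO array came close to WT at 1452510_at. Detection p-values of Pax7 ran from 0.334 to 0.981 in KO and from 0.432 to 0.932 in WT.

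Counted over all members, both KO arrays lay below both WT arrays at 9 of 14 probe sets (64.3%), from 8 genes, and above them at 1. Over all 45037 probe sets the same was true of 23.4% below and 17.5% above. Among the probe sets Absent on all 4 arrays, the members' count was 7 of 12 below (58.3%) and 1 above, against 23.4% below and 12.1% above for all 21298 such probe sets. The signal log ratio separated 9 member probe sets in the same direction, with a background of 21.1%, but not the same 9, since Chrna1 overlapped on that scale and 1452520_a_at of Chrng did not, and the detection p-value separated 8, with a background of 11.5%. These measures come from the same probes and are not independent of each other. The members were chosen with earlier results of these data known, and probe sets of 1 gene are not replicates, so the counts are a description.

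The promoters of 4 members are shown for the E-boxes they hold, the motif that the MyoD family binds. They are the 2 genes detected in WT (Chrna1 and Chrnb1) and 2 undetected members, Chrng and Myog. Signals of Chrng lay far apart at 1449532_at alone of its 3 probe sets. On the log2 scale Myf5, also undetected, lay further apart than Chrng or Myog (mean log2 signal -1.03 in KO against 2.86 in WT). Its KO signals, 0.4 and 0.6, lay under the lowest signals called Present on those arrays, 6.2 and 6.0. That rank therefore rests on values below detection. The promoter of Myf5 held no E-box over the same length and is not printed. Musk, with 3 E-boxes and overlapping signals, is not printed either. Since all printed promoters hold E-boxes, they cannot show whether the motif goes with a difference in signal. Each printed promoter is the 250 bases before the annotated start, from RefSeq on GRCm38.p6, with matches to CANNTG in capitals. This motif reads as itself on the other strand.
Chrna1, chr2:73580339-73580588, minus strand: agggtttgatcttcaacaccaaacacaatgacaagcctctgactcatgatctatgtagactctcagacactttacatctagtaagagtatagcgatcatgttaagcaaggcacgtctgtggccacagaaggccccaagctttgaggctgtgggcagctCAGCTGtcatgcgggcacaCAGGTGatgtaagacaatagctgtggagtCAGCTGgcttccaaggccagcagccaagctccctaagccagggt
Chrnb1, chr11:69795938-69796187, minus strand: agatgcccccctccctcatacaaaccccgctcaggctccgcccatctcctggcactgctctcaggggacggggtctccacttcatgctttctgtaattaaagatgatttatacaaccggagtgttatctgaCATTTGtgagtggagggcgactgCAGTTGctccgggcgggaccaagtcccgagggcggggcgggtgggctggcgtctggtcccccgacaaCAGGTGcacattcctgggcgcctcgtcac
Chrng, chr1:87205561-87205810, plus strand: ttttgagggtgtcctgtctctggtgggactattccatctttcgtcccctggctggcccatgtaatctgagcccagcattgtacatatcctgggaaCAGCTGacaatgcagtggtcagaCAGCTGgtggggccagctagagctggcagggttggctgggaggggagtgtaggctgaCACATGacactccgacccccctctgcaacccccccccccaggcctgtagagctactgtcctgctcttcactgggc
Myog, chr1:134289754-134290003, plus strand: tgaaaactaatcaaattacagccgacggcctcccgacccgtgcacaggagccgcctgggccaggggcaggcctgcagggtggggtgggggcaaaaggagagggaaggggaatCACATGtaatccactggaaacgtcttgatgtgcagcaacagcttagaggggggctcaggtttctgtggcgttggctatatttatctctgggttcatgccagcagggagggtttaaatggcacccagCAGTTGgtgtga
The table of promoters held 7 of the 10 members and had no entry used here for Myod1, Myf6 and Chrnd. Chrna1, Chrnb1, Chrng and Musk had 3 E-boxes each, Myog had 2, and Myf5 and Pax7 had none in this window. Of 32851 promoters of the same length, 66.2% held at least 1 E-box and 12.2% held 3 or more. The CAGCTG form, 1 of the sequences that CANNTG covers, occurred at 2 places in Chrna1, 92 to 87 and 44 to 39 bases before the start, and at 2 places in Chrng, 155 to 150 and 132 to 127 bases before it, and at 1 place in Musk. Of all promoters, 1.26% held this form 2 or more times. The CAGGTG form, searched on both strands, occurred once in Chrna1 and once in Chrnb1, and 17.2% of promoters held it. These matches describe letters in the window and say nothing of binding in these hearts.

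**Figure D3:**
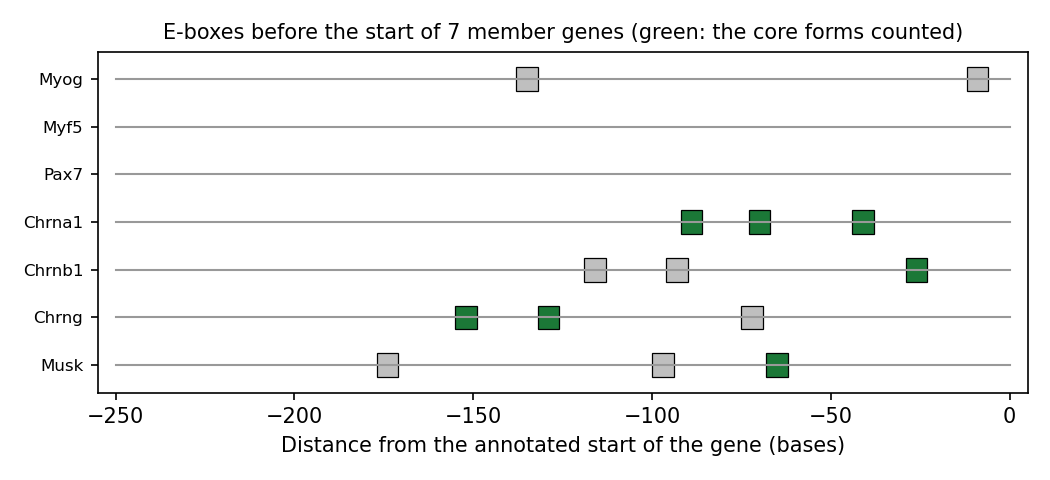
Position of each E-box (box, 6 bases wide) in the 250 bases before the annotated start of the 7 member genes with a promoter entry; green boxes are the CAGCTG and CAGGTG forms. Chrna1, Chrnb1, Chrng and Musk carry 3 boxes each, Myog 2, and Myf5 and Pax7 none.

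Most tested markers of skeletal muscle fibres were far lower in KO on the same arrays. Of the 17 genes of that list, all with a probe set, 12 were tested and 11 fell in limma, Actn3 being the exception with an adjusted p = 0.0506. Of them, 5 were Present on both KO arrays and 12 on both WT arrays. The tested genes not Present on both KO arrays entered the test through their WT calls alone, so the filter favoured a lower value in KO. Without the filter on detection, 8 genes of this list were called. The brightest tested probe sets had a median log2 difference of -4.32, against 0.035 over the 10184 genes tested. Their summed signal, over the brightest probe set of each gene, was 1416.2 and 1418.0 in KO, against 14209.2 and 13315.3 in WT. Of the 5 defining fibre markers, Tnnc2, Tnnt3 and Mylpf were Absent on both KO arrays, Myh3 was Present on 1 of them and Myh8 on both, and all 5 were Present on both WT arrays. Tnnc2, the fast troponin C, had signals of 5.6 and 34.6 in KO, against 2417.7 and 2160.9 in WT, and Myh8, the perinatal myosin heavy chain, had 29.8 and 54.6 in KO, against 1027.4 and 983.3 in WT. Differences were smaller for Tnni2 and Klhl41, both Present on all 4 arrays. Tnni2 read 561.1 and 494.4 in KO against 1187.5 and 932.6 in WT (1416889_at). Klhl41 read 63.9 and 90.7 in KO against 295.2 and 210.7 in WT. In these bulk samples, fewer cells of a type and less RNA per cell cannot be told apart, and the part of skeletal muscle tissue in the values of the 10 members was not tested.

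Other tissues that could stand beside the ventricle were read on the same arrays. Over all genes tested, 140 of 10184 fell. In the bone and cartilage list, 3 of 5 tested genes fell, the bone genes Ibsp, Dmp1 and Mmp13. Every called probe set of these 3 was Absent on both KO arrays, so they entered the test through their WT calls alone. Sp7 and Acan, tested in the same list, did not pass (adjusted p = 0.771 and 0.526 in limma). The summed signal of the list was 239.8 and 204.7 in KO, against 490.4 and 402.8 in WT. The lists of neurons and of Schwann cells, the partners of muscle at the synapse, each had 2 tested genes and no gene past the threshold in limma, with 1 of 2 tested probe sets each at an unadjusted p under 0.05 (Sox10, lower, for Schwann cells, and Gap43, higher, for neurons). Their summed signals were 325.0 and 339.5 in KO against 299.6 and 274.6 in WT for neurons, and 233.4 and 293.3 in KO against 342.6 and 305.7 in WT for Schwann cells. Among the 12 cardiomyocyte genes, 0 passed at the brightest probe set and 3 (Myh6, Tnnt2 and Gata4) fell at a dimmer one. The tendon and fibroblast list had 2 of 7 tested genes lower, the collagens Col1a1 and Col1a2, and the endothelial list had 0 of 6 in limma, with 2 of 7 tested probe sets at an unadjusted p under 0.05. The summed signal was 14073.7 and 15292.2 in KO against 16931.1 and 17220.4 in WT for tendon and fibroblasts, and 2186.9 and 2501.5 in KO against 2247.4 and 2243.0 in WT for endothelium. Without the filter on detection, 9 genes were called over all marker and companion lists, of which 8 were fibre genes and 0 companion genes. Most calls in the bone, tendon and cardiomyocyte lists were therefore lost there. The genes named in these lists were picked after their values were seen, and the part of these tissues was not tested.

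The genes that work with the members were read through 4 companion lists of 68 genes, of which 62 had a probe set and 35 were tested. Dok7 and Mef2c fell, each at 1 probe set, and none rose. Over all genes tested, 140 of 10184 fell and 63 rose. At an unadjusted p under 0.05 there were 14 of 57 companion probe sets, beside 15.5% of all probe sets tested. Of the companion probe sets that were Absent on all 4 arrays, 12 of 62 (19.4%) had both KO arrays below both WT arrays and 3 above, beside the 23.4% and 12.1% given above for all such probe sets.

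Dok7 encodes the adaptor that activates MuSK from inside the muscle cell. Its signals were 236.1 and 239.9 in KO, against 364.0 and 392.8 in WT, at 1434812_s_at, Present on all 4 arrays. The groups were well apart, and the log2 difference was -0.67 ± 0.15 (adjusted p = 0.0422 in limma). The call was lost with no filter on detection (adjusted p = 0.216 in limma) and with no variance trend (0.210). The deposited signal log ratio gave -0.15 (adjusted p = 0.589). The call was also lost without KO replicate 2 (log2 difference -0.68), without WT replicate 1 (-0.72) and without WT replicate 2 (-0.61). A dimmer Dok7 probe set, 1442869_at, read 44.3 and 40.6 in KO against 59.7 and 34.7 in WT and had no Present call.

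Mef2c, a partner of the MyoD family that heart muscle also needs, fell at 1451506_at, with signals of 185.4 and 143.6 in KO against 284.4 and 290.6 in WT (-0.82 ± 0.17, adjusted p = 0.0371 in limma). Its 4 other probe sets did not pass, and the brightest, 1424852_at, read 696.4 and 606.4 in KO against 693.0 and 804.1 in WT (-0.20 ± 0.13, adjusted p = 0.483). The call at 1451506_at was lost with no filter on detection (adjusted p = 0.260 in limma) and with no variance trend (0.223). It was also lost with the signal log ratio (-0.45, adjusted p = 0.424). The same was true without KO replicate 2 (log2 difference -0.63), WT replicate 1 (-0.83) or WT replicate 2 (-0.80). Mef2a, a relative that binds the same sites, had probe sets on both sides of zero: -0.39 ± 0.15 at 1442623_at and 0.25 ± 0.10 at 1427185_at, with adjusted p-values of 0.244 and 0.246, and 3 more tested probe sets between -0.06 and 0.02. Id2, an inhibitor that sequesters the partners of the MyoD family, stood at -0.34 ± 0.15 (adjusted p = 0.297). The list of regulators and partners had 14 tested genes and a median of -0.080 at the brightest probe sets.

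Along the rest of the synapse list, 10 genes were tested, with a median of -0.084, and Dok7 alone passed in limma. Agrn, the nerve-derived signal that heart tissue also makes, stood at 0.18 ± 0.13, with signals of 496.7 and 448.9 in KO against 422.3 and 411.7 in WT. Lrp4, the agrin receptor that pairs with MuSK, had signals of 74.9 and 59.1 in KO against 78.4 and 63.3 in WT (-0.08 ± 0.26). Utrn, a dystrophin relative of the synapse, stood at 0.37 ± 0.14 at 1452222_at (adjusted p = 0.239). Dtna, a dystrobrevin, stood at -0.47 ± 0.18 at 1425292_at (adjusted p = 0.239), at -0.51 ± 0.38 at 1456069_at (0.543) and at 0.04 ± 0.29 at 1429768_at (0.961). Rapsn, which anchors the receptors, was called Absent on all 4 arrays at signals of 212.8 and 160.3 in KO against 262.9 and 170.1 in WT. Ache, the enzyme that breaks down acetylcholine, read 6.7 and 10.8 in KO against 26.9 and 9.3 in WT, all Absent. Colq, the collagen tail that holds that enzyme in the synaptic cleft, read 36.2 and 36.1 in KO against 52.3 and 68.0 in WT, with 1 Marginal call in WT.

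Of the 23 probe sets of the other receptor subunits, 17 were Absent on all 4 arrays. Chrne, the adult epsilon subunit, had signals of 1.8 and 2.0 in KO against 3.8 and 10 in WT, all Absent. Of 11 such genes on the array, Chrna3, a subunit of receptors in autonomic neurons, was the 1 tested. At 1444368_at Chrna3 was Present on all 4 arrays, with 46.9 and 28.2 in KO against 23.9 and 51.0 in WT (0.059 ± 0.41, adjusted p = 0.961 in limma). Among genes of myoblasts, satellite cells and fusion, 10 were tested, with a median of 0.16 over brightest probe sets of which 3 were negative and 7 positive. Over all genes tested, 4516 were negative and 5668 positive. None passed in limma, and 4 of 14 probe sets had an unadjusted p under 0.05, beside the background of 15.5%. Myof was, like Chrna1 and Chrnb1, Present on both WT arrays and Absent on both KO arrays at 1452455_at (adjusted p = 0.507 in limma). Its other probe set, 1427318_s_at, overlapped between the groups and was Absent on all 4 arrays. Of the 15 probe sets of this list that were Absent on all 4 arrays, 1 had both KO arrays below both WT arrays, beside 23.4% of all such probe sets. The smallest p-values there belonged to Ncam1, a cell adhesion molecule, at -0.61 ± 0.16 (1426865_a_at, adjusted p = 0.0798), to Sdc4, a surface proteoglycan of satellite cells, at -0.67 ± 0.19 (1448793_a_at, adjusted p = 0.121), and to Vcam1, an adhesion receptor, at 0.37 ± 0.12 (1448162_at, adjusted p = 0.160). The brightest Ncam1 probe set, 1426864_a_at, read 651.9 and 516.8 in KO against 490.9 and 553.1 in WT.

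**Figure D4:**
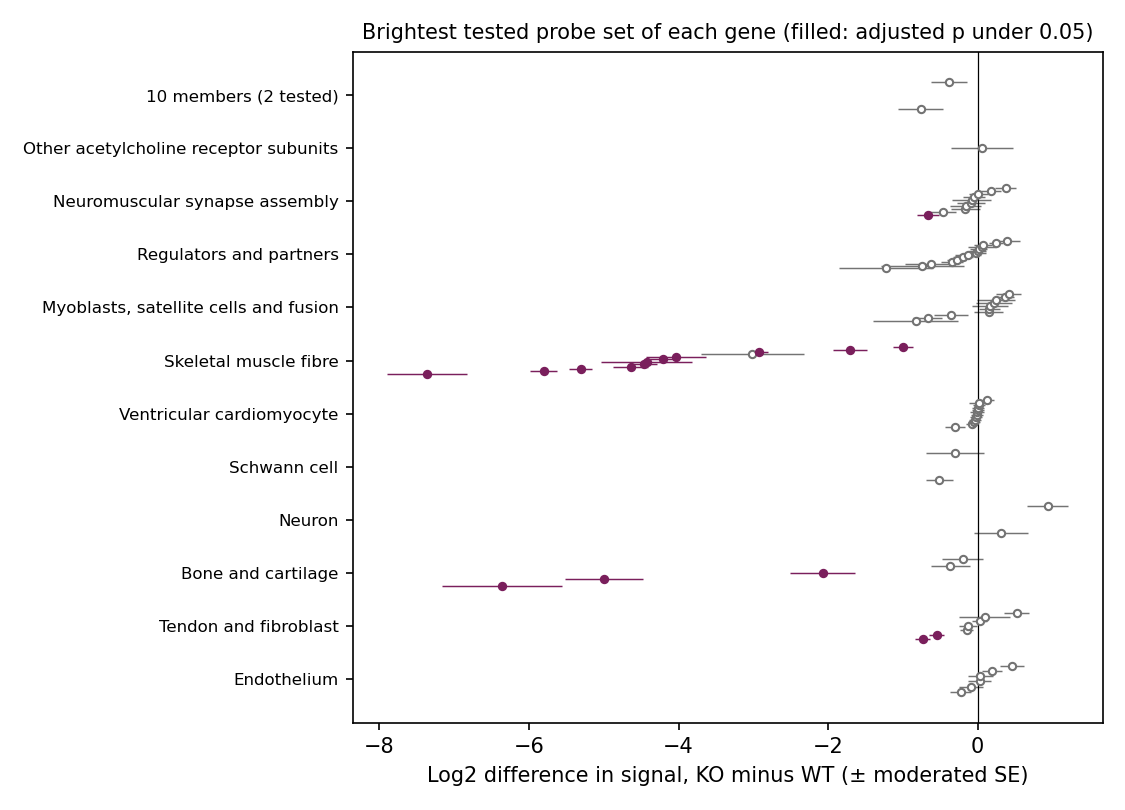
Log2 difference in signal, KO minus WT, with moderated SE, of each gene at its brightest tested probe set, for the 2 tested members, the 4 companion lists and 7 marker lists; filled points passed an adjusted p of 0.05 in limma. Chrna1 and Chrnb1 lie at -0.76 and -0.38 and are not filled, while the skeletal muscle fibre genes have a median of -4.32.

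The probe sets whose profile over the 4 arrays was most like that of Chrna1, by Euclidean distance between log2 signals centred on their mean, named Tle1 (0.0086), Gmeb1 (0.029), Sec62 (0.054), Iqce (0.058) and Sox11 (0.081). Tle1, a corepressor, had signals of 40.0 and 47.8 in KO against 85.6 and 64 in WT. Sec62 takes part in protein entry into the endoplasmic reticulum, and Sox11 is a transcription factor of embryonic tissues. None of the 5 passed the test, with adjusted p-values from 0.0951 to 0.220 in limma. Over 4 arrays such a likeness is a description of these libraries.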

How the data were processed

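Per the submitters' processing notes, the authors made the deposited values with MAS5, of a version the sources used here do not state. The deposited signal is an intensity on a linear scale, and all arrays had a trimmed mean of 150 with 2% cut from each end, so no rescaling was needed. Per the file headers, the authors' files add a detection p-value, its call and a signal log ratio, which is on a log2 scale. Gene names came from the platform annotation, in which 34945 probe sets name 1 gene, 932 several and 9160 none listed, with symbols updated through a gene table of GRCm38.p6, which held 34741 of the 34945.

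A probe set entered the test when 1 group or both had 2 Present calls. The test ran on log2 signal, with signals of 0 set to 0.1, using limma 3.58.1 (lmFit and eBayes with a variance trend) in R 4.3.3, fitting genotype alone. P-values were two-sided and adjusted by Benjamini-Hochberg over the 19065 probe sets, at 0.05. The fit was tested on simulated data. Where a group has no Present call, the fold compares the brighter group's mean with a mean over the dim arrays. Each dim array gives the probe set's own signal or the array's lowest Present signal, whichever is higher. For Chrna1 and Chrnb1 the probe set's own signal was the higher on both KO arrays. Their folds are therefore point estimates and not lower bounds. The named genes were all 10 members, the companion genes past the threshold, the 3 of each list with the smallest p, and Chrne, Rapsn, Dok7, Lrp4, Agrn, Ache and Colq. Members and lists were chosen with earlier results of these data known. The number of arrays limits the precision.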

Additional observations from a re-analysis of the deposited data

How the results depend on the processing

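No member probe set passed in limma under any of the alternatives, which were quantile normalization, added offsets of 16 and 64, centring on the probe sets called Present throughout, no filter on detection (14 member probe sets tested), Present on all 4 arrays (0 tested), no variance trend, a robust variance prior, the replicate block, each array left out, and the signal log ratio. Where they were tested, Chrna1 kept a negative difference in 13 of 13 alternatives, from -0.98 to -0.34, with adjusted p-values of 0.197 to 0.776, and Chrnb1 in 13 of 13, from -0.75 to -0.20, with 0.365 to 0.837. With a detection p-value of 0.01 in place of the Present call, 0 member probe sets were detected on both WT arrays, against 2. Member probe sets with both KO arrays below both WT arrays numbered 8 with quantile normalization, an alternative chosen after seeing the data. The same counts by signal log ratio and by detection p-value were likewise not planned. Signal over background is the limit for the other 12 member probe sets, whose values were all called Absent. Chrna1 and Chrnb1 have 1 probe set each, so the alternative of another probe set was not run. All called probe sets numbered 256, but 37 without the filter, 23 without the variance trend, 0 with the signal log ratio, and 163 to 650 with 1 array left out, the lowest without WT replicate 1 and the highest without KO replicate 1. Listed genes called numbered 21, but 9 without the filter, 12 when Present on all 4 arrays, 10 without the variance trend, 0 with the signal log ratio, and 17 to 23 with 1 array left out. Dok7 and Mef2c kept a negative difference in all 14 alternatives and their call in 8 each, with adjusted p-values of 0.00798 to 0.589 and 0.00280 to 0.424. The titles number the arrays 1 and 2 in both groups without saying what the number marks. Same-numbered arrays did not deviate together (correlation of deviations -0.011 across probe sets), and the replicate block gave 721 called probe sets and added Ncam1 and Sdc4 to the companion genes called.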
